A study of Mus musculus with 6 samples.

Results

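The nuclear-encoded genes of the mitochondrial respiratory chain were examined in mouse epiblast stem cells with and without Activin A. Members were all protein-coding genes whose symbol begins with Ndufa, Ndufb, Ndufc, Ndufs, Ndufv, Sdh, Uqcr, or Cox followed by a digit from 4 to 8 in GENCODE M21, the gene annotation used for names and coordinates. The rule gave 80 of 52609 annotated genes in the files, of which 21816 are protein-coding. Although the set is named for complexes I, II and IV, the prefix Uqcr also brings in 8 subunits of complex III. The symbols take in 12 assembly factors as well, which help to build complexes I and II but are not part of the finished enzymes. Ndufa4 and Ndufa4l2 carry a complex I symbol and are placed here with complex IV, where the protein Ndufa4 is now assigned.

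The respiratory chain sits in the inner mitochondrial membrane. Complex I takes electrons from NADH and complex II takes them from succinate, complex III passes them from ubiquinol to cytochrome c, and complex IV hands them to oxygen. Complexes I, III and IV pump protons, and the resulting gradient drives ATP synthase. Complexes I, III and IV combine subunits encoded in the mitochondrial and nuclear genomes, while all subunits of complex II are nuclear-encoded. Primed pluripotent cells such as epiblast stem cells are known to rely more on glycolysis than naive pluripotent cells do.

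Poly(A) RNA was sequenced with a stranded kit in 3 libraries with Activin A and 3 libraries without it, from epiblast stem cells derived from dissected epiblasts and kept on inactivated mouse embryonic fibroblasts. Cells with Activin A received 20 ng/mL of that TGF-beta family ligand, 10 ng/mL FGF2, the Wnt secretion inhibitor IWP2 at 5 µM and SB431542, an inhibitor of the Activin type I receptors, at 2 µM. Cells without Activin A received FGF2, IWP2 and SB431542 at the same doses. The series title concerns the effect of Activin A on allocation to ectoderm, and the comparison asks how transcript levels differed with Activin A. The treatment text is worded alike for all 6 libraries, and replicate 1 without Activin A has a growth factor label that lists Activin A, against its title. The design text mentions 2 lines, which the sample labels do not name, so a difference between lines and the effect of Activin A cannot be told apart. No strain, sex or passage is given, and nothing says that the replicates were separate cultures, so p-values measure the spread between these libraries, which may be technical.

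Replicates 1 to 3 with Activin A were sequenced to 16350923, 13649370 and 9946521 estimated reads, and those without it to 14228036, 14992042 and 13567995. The members took 0.586% to 0.626% of the matched reads with Activin A and 0.567% to 0.575% without. All 12 epiblast stem cell markers were detected in every library, with a summed level of 2074 to 2111 CPM (read counts scaled to library size with TMM factors) with Activin A and 1445 to 1475 CPM without. Of these 12, 9 were higher, including Tdgf1 (33.6 CPM with, 1.30 CPM without) and Nanog (235 CPM with, 59.5 CPM without), and 2 were lower, Lin28a and Sox2, which are named here after their values were seen. Fibroblast feeder markers summed to 1182 to 1296 CPM with Activin A and 1753 to 1777 CPM without, and of 18 such genes 6 were higher and 5 lower. Of the higher ones, Col3a1 had a log2 fold change of 1.21 and Lox one of 1.07, and of the lower ones Acta2 had -1.28 (168 CPM with, 407 CPM without) and Col1a2 -0.78, both named after their values were seen. Striated muscle markers summed to 149 to 182 CPM with Activin A and 274 to 279 CPM without, and 3 of 7 tested were lower, among them Tnnt2, with a log2 fold change of -2.99, and Des, with -0.99. Of the other muscle markers, Myf5, Myl2, Myod1 and Myog were at 0 in some libraries. The part of these shifts in the results below was not tested, and in bulk RNA fewer cells of a type and less RNA per cell cannot be told apart.

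Most respiratory chain genes had nearly the same level with and without Activin A. Of the 76 members with enough reads to be tested, 8 were higher with Activin A, 1 was lower and 67 did not pass (edgeR quasi-likelihood test, adjusted p below 0.05 over 15448 genes). Over all genes tested, 29.2% were called, 15.2% higher and 14.0% lower, against 11.8% of the tested members. The median log2 fold change (with minus without Activin A throughout) was 0.05 over the members and -0.0012 over all genes, and 57 of the 76 members had a positive value. The 8 higher genes were Ndufab1, Ndufa6, Ndufaf3, Ndufaf6, Ndufaf7, Sdhaf4, Ndufa4l2 and Cox6b2, and the lower one was Cox4i2. In 13 members every library with Activin A lay above every library without it, and in 2 every one lay below, while over all genes tested the groups did not overlap in 42.9% (21.6% higher and 21.3% lower). The members not tested were Cox6a2, Cox7b2, Cox8b and Cox8c, isoforms with at most 4 reads in any library. The number called depended on the test. DESeq2 called only Ndufab1 and Ndufa4l2 at the same threshold (it called 19.3% of all genes), and limma on log2(TPM + 1) called only Ndufaf3 and Cox4i2.

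**Figure D1:**
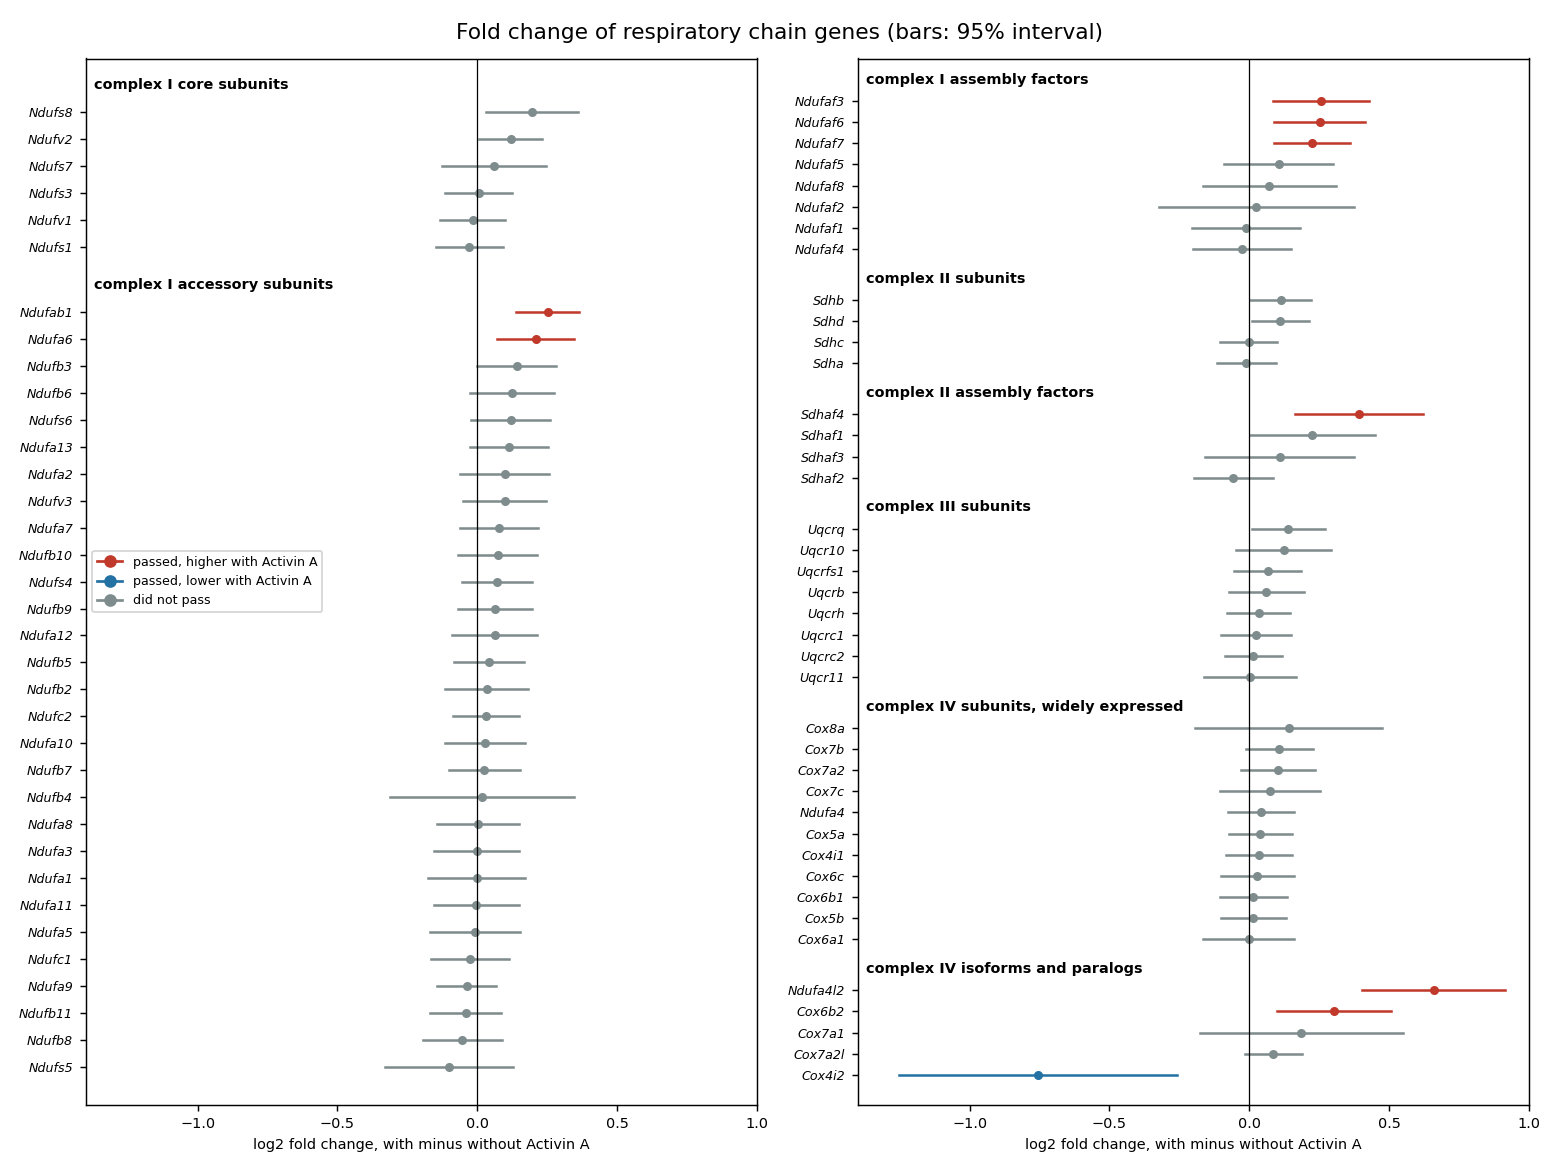
Log2 fold change, with minus without Activin A, of the tested members drawn (horizontal axis), grouped by role, with points for the edgeR estimate and bars for the 95% interval; red passed and was higher, blue passed and was lower, grey did not pass. Called were 4 of 12 assembly factors (33.3%), 3 of 5 tested isoforms and paralogs, and 2 of 59 other subunits (3.39%). The share over all genes tested was 29.2% in either direction and 15.2% higher, and all 4 called assembly factors were higher. Most estimates for subunits lie between -0.1 and 0.15.

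Complex I begins with 7 nuclear core subunits, which carry the NADH site, the iron-sulfur clusters and much of the quinone site. None of the 7 passed the edgeR test, 2 had an unadjusted p below 0.05, and their median log2 fold change was 0.004. Ndufs8, an iron-sulfur subunit next to the quinone site, had 51.6, 56.4 and 45.1 CPM with Activin A and 42.1, 45.6 and 46.6 CPM without. Its groups overlapped, as the library with Activin A replicate 3 lay below 2 of the libraries without. The log2 fold change was 0.20 (SE 0.08, edgeR adjusted p = 0.0703). Ndufv2, which holds an iron-sulfur cluster beside the flavin, is named after its values were seen as the only core subunit with groups apart. It had 107, 110 and 113 CPM with Activin A and 98.2, 105 and 101 CPM without, and it did not pass (edgeR adjusted p = 0.103). At the other end, Ndufs1, the large iron-sulfur subunit of the NADH arm, had 108, 108 and 117 CPM with and 116, 115 and 107 CPM without Activin A, which overlap.

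Of the 29 accessory subunits of complex I, which surround the core and stabilise it, 2 rose with Activin A and 27 did not pass. Ndufab1, the mitochondrial acyl carrier protein, works in mitochondrial fatty acid synthesis and also sits in complex I (GRCm38 chr7:122085403-122101886, minus strand). It had 99.0, 104 and 103 CPM with Activin A and 83.2, 85.6 and 88.6 CPM without. All 3 libraries with Activin A lay above all 3 without. The log2 fold change was 0.25 (SE 0.05, edgeR adjusted p = 0.00236), a ratio of 1.10 to 1.29 at 95% confidence. This call held in 16 of 17 alternatives, the exception being limma on log2(TPM + 1). Of its 31-base words, 9.36% occur in other genes, chiefly in the pseudogene Gm4459 with a mean of 0.353 CPM, and the gene Gm44986 overlaps its exons on the opposite strand.

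Ndufa6, a LYR-motif subunit that binds the acyl carrier protein within complex I, was the other accessory gene that rose (chr15:82350140-82354322, minus strand). Its values were 75.1, 82.1 and 71.4 CPM with Activin A and 63.3, 64.7 and 70.1 CPM without. The groups did not overlap, but replicate 3 with Activin A and replicate 3 without lay close together. The log2 fold change was 0.21 (SE 0.06, edgeR adjusted p = 0.0247), and the call held in 10 of 17 alternatives. The remaining accessory subunits ran down to Ndufs5, which had 11.9, 13.9 and 10.4 CPM with Activin A and 13.0, 13.3 and 12.8 CPM without. Its groups overlapped and it did not pass (log2 fold change -0.10, SE 0.11, edgeR adjusted p = 0.532). Other genes hold 26.5% of the 31-base words of Ndufs5, so its count is uncertain. Apart but not passed were Ndufb3 and Ndufs4, higher in every library with Activin A, and Ndufa9, lower in every one, all named after their values were seen. Their edgeR adjusted p-values were 0.133, 0.415 and 0.620.

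The assembly factors of complex I named Ndufaf are chaperones and enzymes that help to build it. Of 8 measured, 3 rose with Activin A and 5 did not pass, and the median log2 fold change was 0.09. The share called was 37.5%, against 29.2% of all genes tested (15.2% higher). Ndufaf7, a mitochondrial methyltransferase, had 40.5, 38.1 and 39.9 CPM with and 34.7, 34.4 and 32.4 CPM without Activin A (chr17:78937136-78948052, plus strand). The groups were apart by more than the range within either. The log2 fold change was 0.22 (SE 0.06, edgeR adjusted p = 0.0157).

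Ndufaf6, a factor of early assembly, had 22.4, 21.7 and 23.2 CPM with Activin A and 19.4, 18.1 and 18.9 CPM without (chr4:11051045-11076205, minus strand). Ndufaf3, which acts with Ndufaf4 on the quinone-binding module, had 23.1, 22.0 and 20.7 CPM with and 18.8, 17.4 and 19.1 CPM without (chr9:108565537-108567434, minus strand). In both genes every library with Activin A exceeded every library without it. Their log2 fold changes were 0.25 (SE 0.08, edgeR adjusted p = 0.0216) and 0.25 (SE 0.08, edgeR adjusted p = 0.0268). The calls of Ndufaf7, Ndufaf6 and Ndufaf3 each held in 11 of 17 alternatives. Ndufaf4, the partner of Ndufaf3, had 22.5, 22.0 and 26.4 CPM with Activin A and 24.6, 23.4 and 23.7 CPM without. Its groups overlapped, and the 95% interval of its ratio was 0.869 to 1.11. Ndufaf3 overlaps exons of Impdh2 on the opposite strand, and the strand setting of the read assignment is not stated in the labels or headers. Per length, the assembly factors were lower than nearly all subunits, at 11.0 to 28.6 CPM per kilobase of transcript with Activin A and 10.7 to 24.9 without.

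Among 9 tested genes outside the symbol rule that also assist complex I assembly, 3 rose and none fell. The share called was 33.3%, all of it higher, against 29.2% of all genes tested (15.2% higher). Dmac1, a factor for the distal membrane arm, had 34.4, 36.8 and 37.5 CPM with Activin A and 24.9, 26.5 and 25.7 CPM without, which do not overlap. Its log2 fold change of 0.49 (SE 0.07, edgeR adjusted p = 7.28e-05) was larger than that of any Ndufaf gene. Dmac2, which works on the same arm, had a log2 fold change of 0.29 (SE 0.08, edgeR adjusted p = 0.0162). The remaining one, Tmem126b, a component of the intermediate assembly complex, had 0.35 (SE 0.10, edgeR adjusted p = 0.0220) and is named after its values were seen. The call held in all 17 alternatives for Dmac1, in 11 for Dmac2 and in 10 for Tmem126b.

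**Figure D2:**
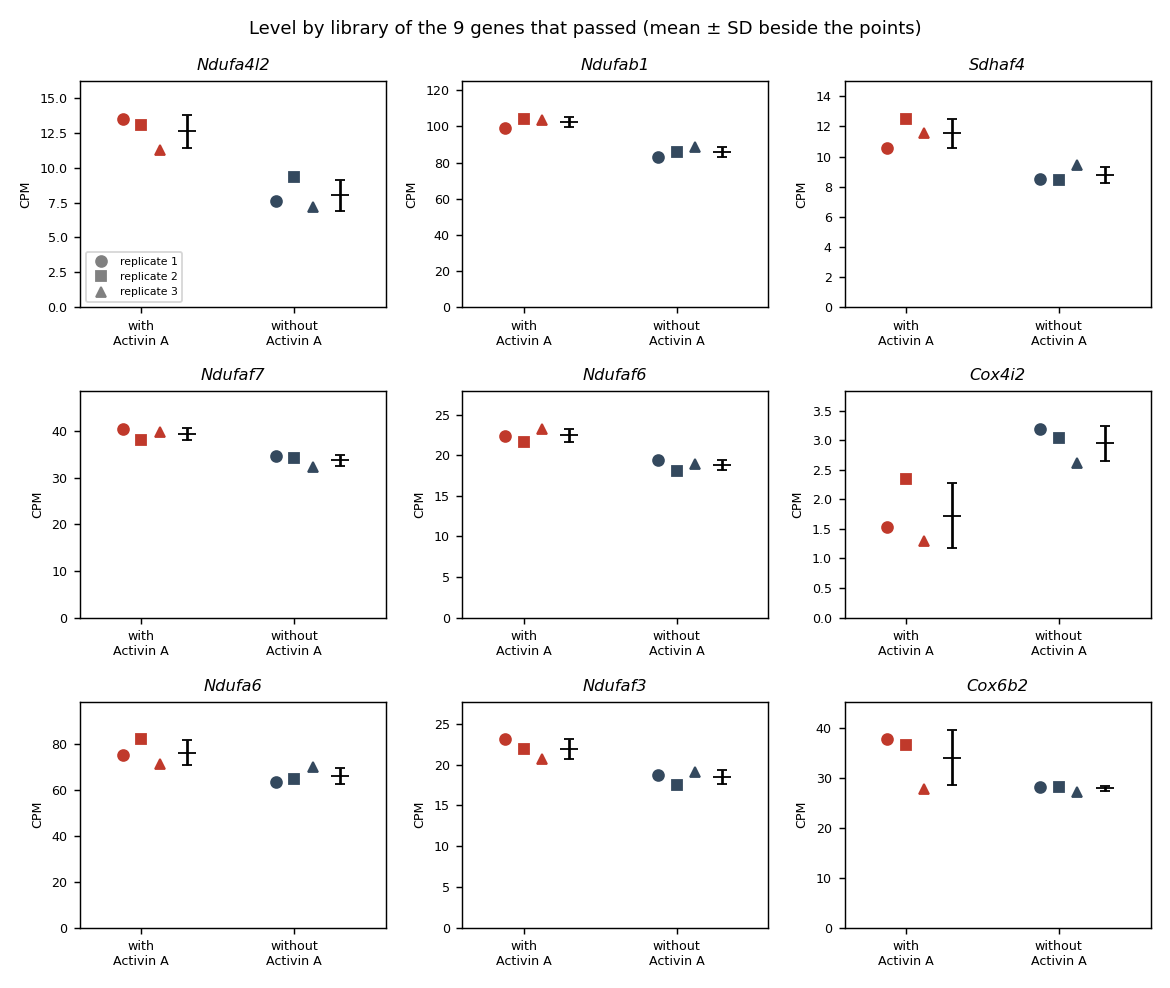
Level of the 9 members that passed, in CPM (vertical axes start at 0), in each library with Activin A (red) and without (dark blue); symbols mark the replicate, and the bar beside each group is the mean ± SD of 3 libraries. The groups are apart in every panel but that of Cox6b2, where replicate 3 with Activin A lies at 27.6 CPM among the libraries without.

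Complex II, or succinate dehydrogenase, also works in the tricarboxylic acid cycle. None of its 4 subunits passed the edgeR test, though 2 had an unadjusted p below 0.05. Sdha, the flavin-carrying subunit, had 265, 277 and 278 CPM with Activin A and 279, 264 and 283 CPM without. Sdhc, a membrane anchor, had 174, 181 and 170.5 CPM with and 176, 173 and 177 CPM without. Both pairs of groups overlapped, and the 95% intervals of the ratio were narrow, 0.924 to 1.07 for Sdha and 0.931 to 1.07 for Sdhc. Sdhb, the iron-sulfur subunit, had 114, 123 and 117 CPM with Activin A and 109, 109 and 108 CPM without. Sdhd, the other membrane anchor, had 166, 163 and 168 CPM with and 156, 148 and 155 CPM without. In Sdhb and Sdhd the groups were apart, with log2 fold changes of 0.11 each, but neither passed (edgeR adjusted p = 0.120 and 0.0986). Per kilobase the 4 subunits lay close together, from 101 to 135 CPM with Activin A and from 95.3 to 125 without.

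Of the 4 assembly factors of complex II, Sdhaf4 rose. Sdhaf4 binds Sdha after its flavin is attached and shields it until Sdhb joins (chr1:23995939-24005656, minus strand). It had 10.6, 12.5 and 11.6 CPM with Activin A and 8.50, 8.42 and 9.42 CPM without. All libraries with Activin A were higher than all libraries without. The log2 fold change was 0.39 (SE 0.11, edgeR adjusted p = 0.0126), from 116 to 173 reads per library. The call held in 11 of 17 alternatives, and leaving out replicate 2 with Activin A, or replicate 1 or 2 without, ended it (edgeR adjusted p from 0.0555 to 0.0621). Sdhaf2, which is needed to attach the flavin to Sdha, had 33.9, 31.2 and 31.7 CPM with and 34.4, 33.2 and 33.4 CPM without. Its groups overlapped and it did not pass (log2 fold change -0.06, SE 0.07, edgeR adjusted p = 0.569). The factors of iron-sulfur insertion into Sdhb, Sdhaf1 and Sdhaf3, did not pass either.

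Complex III is represented by 8 subunits, and none passed the edgeR test (1 had an unadjusted p below 0.05). All 8 log2 fold changes were positive, with a median of 0.05, and in all 8 the groups overlapped. Uqcrq, a small subunit beside cytochrome b, had the largest value, 0.14 (SE 0.06, edgeR adjusted p = 0.103). It had 109, 112 and 96.3 CPM with Activin A and 98.3, 96.3 and 94.0 CPM without, so replicate 3 with Activin A lay at the level of the libraries without. Uqcr11, another small subunit, had the smallest value, 0.003 (95% interval of the ratio 0.893 to 1.12). It had 51.5, 52.0 and 41.6 CPM with and 47.9, 47.2 and 50.8 CPM without, with replicate 3 with Activin A the lowest of all 6.

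The 11 widely expressed subunits of complex IV gave no call in edgeR, none with an unadjusted p below 0.05, and overlapping groups in all 11. Their median log2 fold change was 0.04. DESeq2 and limma on log2(TPM + 1) also called 0 of the complex I core subunits and of the subunits of complexes II, III and IV described so far. Other fits did call some. Upper-quartile scaling in edgeR called Ndufs8, Ndufv2, Sdhb, Sdhd and Uqcrq higher (28.7% of all genes tested were called). With trends on GC content and length removed, edgeR called Ndufs8 and Uqcrq higher (38.6% of all genes). With no low-count filter it called Ndufs8 (14.1% of all genes). Calls with replicate 3 with Activin A left out are given below. Cox8a, a small membrane subunit, had the largest and the least certain log2 fold change of the 11, 0.14 (SE 0.14). It had 150, 168 and 113 CPM with Activin A and 131, 133 and 129 CPM without, so the libraries with Activin A lay on both sides of the others. Cox6a1, a regulatory subunit, had the lowest, -0.002, with 116, 126 and 97.7 CPM with and 113, 110 and 118 CPM without. Cox6b1, which faces the intermembrane space, was the most abundant per length at 397 CPM per kilobase with Activin A and 393 without. Cox4i1, the main form of the largest nuclear subunit, stood next at 377 with and 369 without, and neither passed.

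The tissue isoforms and paralogs of complex IV held 3 of the 9 calls, with 5 of 9 genes tested. Ndufa4l2, a paralog of Ndufa4 known to be induced by hypoxia, had the largest ratio of all members (chr10:127514967-127517154, plus strand). It had 13.5, 13.0 and 11.3 CPM with Activin A and 7.58, 9.30 and 7.18 CPM without. The lowest library with Activin A exceeded the highest without, and the log2 fold change was 0.66 (SE 0.12, edgeR adjusted p = 0.000744), a ratio of 1.32 to 1.88 at 95% confidence. The call held in 15 of 17 alternatives. It was lost under a length offset, with a log2 fold change of 0.43 (edgeR adjusted p = 0.323). Limma on log2(TPM + 1) also lost it, with 0.34 (limma adjusted p = 0.409). It held with trends on GC content and length removed (log2 fold change 0.58, edgeR adjusted p = 0.000109). The exons of Ndufa4l2 overlap those of Shmt2 on the opposite strand. Its counterpart Ndufa4 had 112, 123 and 122 CPM with and 120, 112 and 115 CPM without, which overlap. Per kilobase, Ndufa4l2 made up 5.57% ± 0.697 of the sum of both with Activin A and 3.72% ± 0.604 without (SD, n = 3 each).

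Cox4i2, the form of subunit 4 found chiefly in lung and raised by hypoxia, was the single member that fell (chr2:152754173-152765037, plus strand). It had 1.53, 2.34 and 1.30 CPM with Activin A and 3.19, 3.03 and 2.62 CPM without. All libraries with Activin A lay below all without, on 13 to 45 reads per library. The log2 fold change was -0.76 (SE 0.23, edgeR adjusted p = 0.0237), and the 95% interval of the ratio ran from 0.420 to 0.835. DESeq2 gave -0.77 with an adjusted p of 0.158, and leaving out replicate 1 or 3 with Activin A, or replicate 1 or 2 without, ended the edgeR call (adjusted p from 0.0509 to 0.109). Cox4i2 took 0.616% ± 0.150 of the summed Cox4 level per kilobase with Activin A and 1.09% ± 0.127 without (SD, n = 3 each).

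Cox6b2, the testis form of subunit 6b, passed the edgeR test with a log2 fold change of 0.30 (SE 0.10, edgeR adjusted p = 0.0272) although its groups overlapped (chr7:4751792-4753094, minus strand). It had 37.6, 36.6 and 27.6 CPM with Activin A and 28.1, 28.2 and 27.2 CPM without. Replicates 1 and 2 with Activin A stood above the rest, and replicate 3 did not. The call held in 9 of 17 alternatives. Cox6b2 made up 15.5% ± 1.65 of the summed Cox6b level per kilobase with Activin A and 13.2% ± 0.467 without (SD, n = 3 each), the largest share among the tissue isoforms compared with their counterparts.

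In the Cox7a family, Cox7a2l, which joins complexes III and IV into supercomplexes, had 207, 213 and 216 CPM with Activin A and 206, 194 and 199 CPM without. The groups were apart by a narrow margin, and it did not pass (edgeR adjusted p = 0.204). Other genes, chiefly the pseudogene Gm6969, hold 21.4% of its 31-base words. Cox7a1, the heart and muscle form, had 3.24, 4.10 and 3.69 CPM with and 2.98, 3.23 and 3.44 CPM without, and its widely expressed counterpart Cox7a2 had 80.7, 94.0 and 84.4 CPM with and 80.5, 78.6 and 82.2 CPM without. Both overlapped and neither passed. Of the members not tested, Cox8c, a testis form, had 0 reads in all 6 libraries and Cox8b, a muscle form, had 1 read in a library with Activin A. Cox6a2, the muscle counterpart of Cox6a1, had at most 3 reads, and Cox7b2, the testis counterpart of Cox7b, at most 4. Cox7b itself had 100.5, 108 and 104 CPM with Activin A and 93.3, 94.2 and 102 CPM without, which overlap.

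**Figure D3:**
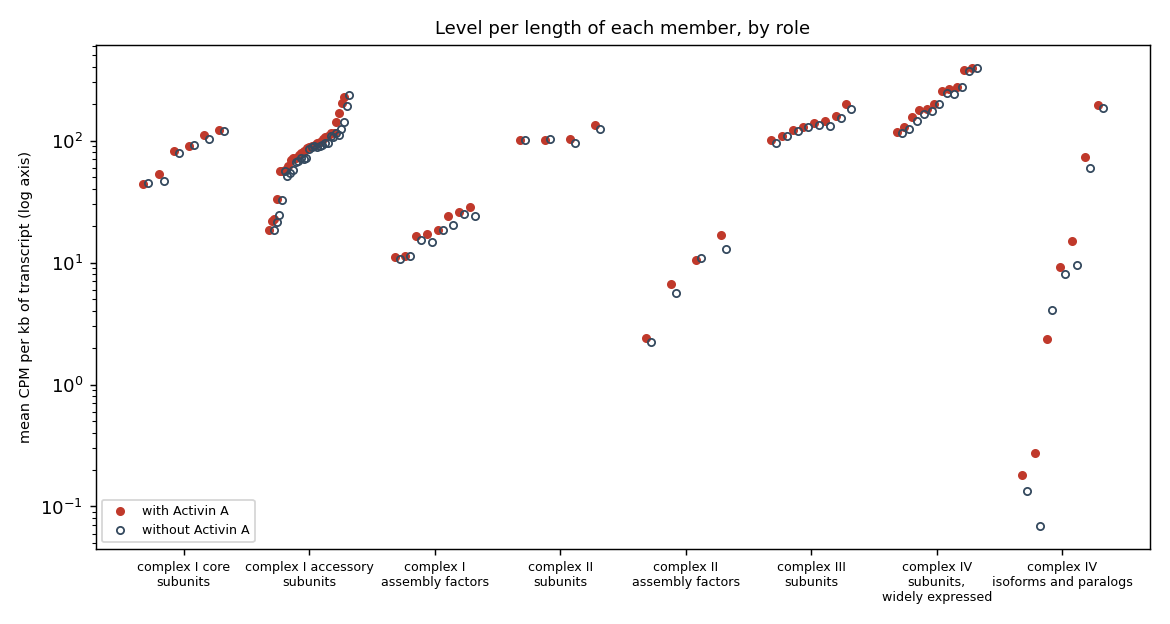
Mean level per length of the members drawn, in CPM per kilobase of transcript on a log axis, with Activin A (filled) and without (open), by role and in rising order within a role. Subunits lie mostly between 40 and 400, assembly factors between 2 and 29, and tissue isoforms reach below 1; members at 0 are not drawn.

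Added up by role, the levels were highest in replicate 2 with Activin A in 7 of the 8 roles. All 80 members together summed to 5892, 6248 and 5803 CPM with Activin A and 5784, 5723 and 5807 CPM without, which overlap, with means 3.63% apart. Replicate 2 with Activin A was the highest library in 44 of the 76 tested members. Complex I assembly factors summed to 165, 166 and 176 CPM with and 157, 152 and 154 CPM without, and complex II assembly factors to 70.1, 72.2 and 69.2 CPM with and 68.7, 63.9 and 65.5 CPM without. In both, and in the isoforms and paralogs, every library with Activin A lay above every library without in CPM. Most of the isoform and paralog sum (means 264 CPM with, 242 CPM without) was Cox7a2l (212 CPM with, 200 CPM without), which did not pass. Cox4i2, in the same role, fell. On the TPM scale the complex I assembly factors overlapped instead, with 232, 240 and 260 TPM with Activin A and 230, 234 and 273 TPM without, means -0.46% apart. Complex III summed to 877, 932 and 876 CPM with and 872, 855 and 865 CPM without, which is apart by a narrow margin, but it overlapped on the TPM scale and per kilobase. The sums of complex I core subunits, accessory subunits, complex II and widely expressed complex IV subunits overlapped between the groups in CPM.

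**Figure D4:**
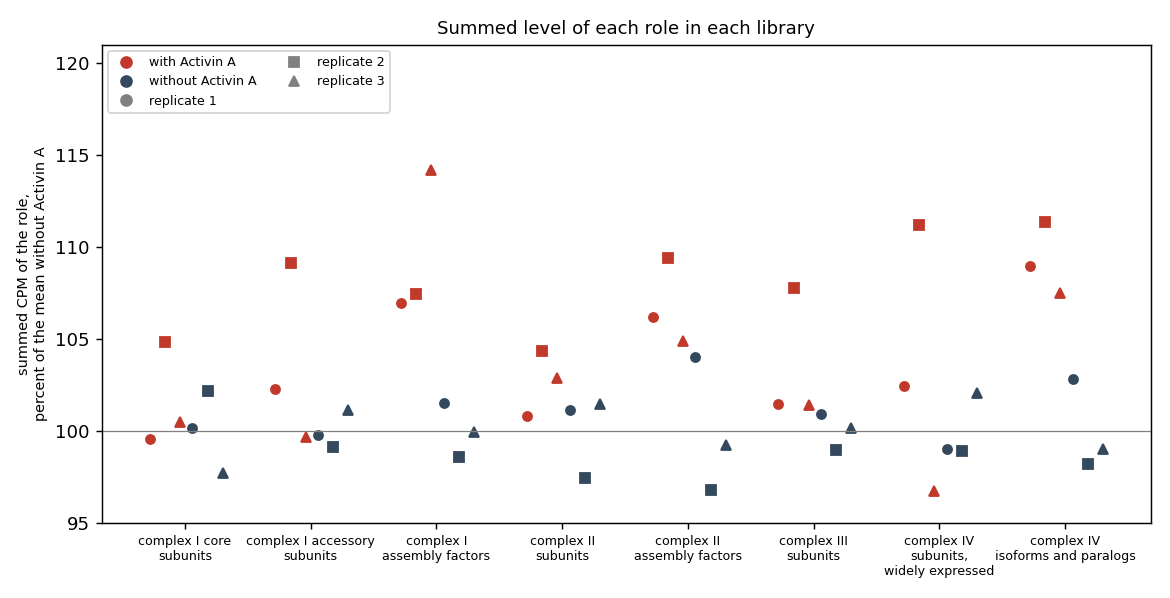
Summed level of each role in each library, as a percentage of the mean without Activin A (grey line at 100), with Activin A in red and without in dark blue; symbols mark the replicate. The groups are apart for both sets of assembly factors, the isoforms and paralogs (mostly Cox7a2l by level) and, by a narrow margin, complex III. Replicate 2 with Activin A is the highest library in 7 of the 8 roles.

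The library with Activin A replicate 3, which had the fewest reads, stood apart in these genes. The median deviation of the 38 GC-rich members minus that of the 38 GC-poor members was -0.16 on the log2 scale in that library, against 0.06 and 0.07 in replicates 1 and 2 with Activin A and -0.02, 0.02 and 0.02 without. It was the lowest of all 6 libraries in 23 members and the highest in 16. Without it, edgeR called 18 members higher and 0 lower, 23.7% of the members against 36.0% of all genes tested (18.2% higher and 17.8% lower). The 10 added genes were Cox8a, Ndufa7, Ndufs6, Ndufs7, Ndufs8, Ndufv3, Sdhb, Sdhd, Uqcr10 and Uqcrq, named here after their values were seen, and Cox4i2 was lost. Leaving out any other library gave 2 to 4 higher members (2.63% to 6.58% of members called, against 20.5% to 24.1% of all genes tested). The part of GC content in these differences was not tested beyond 1 alternative, which removed trends on GC content and length from every library and called 10 members higher and 1 lower. That fit called 14.5% of the members and 38.6% of all genes tested.

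**Figure D5:**
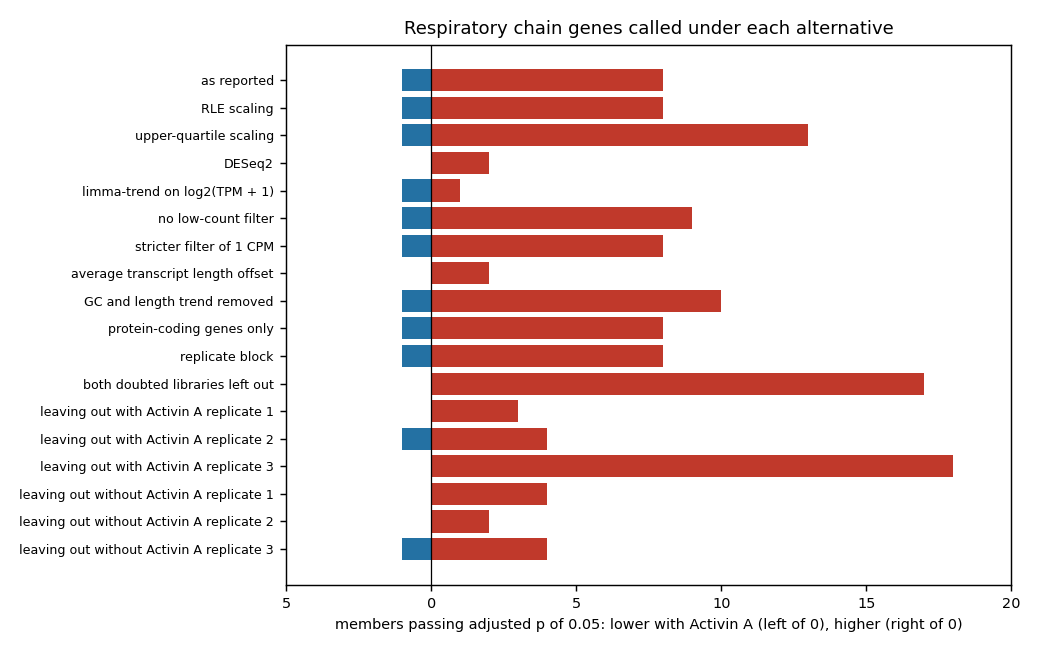
Number of members that passed at an adjusted p of 0.05 under each alternative, higher with Activin A to the right of 0 (red) and lower to the left (blue). Counts of higher members run from 1 with limma on log2(TPM + 1) to 18 when replicate 3 with Activin A is left out, against 8 as reported. Of all genes tested, these 3 fits called 10.0%, 36.0% and 29.2% in either direction.

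Among transcription factors and coactivators known to drive nuclear respiratory genes, some differed. Of 13 tested regulators, 3 fell with Activin A, none rose and 10 did not pass. The share called was 23.1%, against 29.2% of all genes tested (14.0% lower). Pprc1, a coactivator of the PGC-1 family, had 110, 102 and 94.2 CPM with Activin A and 125, 128 and 124 CPM without (log2 fold change -0.30, SE 0.06, edgeR adjusted p = 0.00166). Ppargc1b, of the same family, had 11.4, 11.1 and 10.2 CPM with and 13.2, 14.1 and 13.3 CPM without (log2 fold change -0.31, SE 0.09, edgeR adjusted p = 0.0227). The remaining one is Nrf1, named after its values were seen, which binds a GC-rich palindrome in promoters. It had 34.3, 35.1 and 34.1 CPM with and 38.3, 40.4 and 38.1 CPM without (log2 fold change -0.18, SE 0.06, edgeR adjusted p = 0.0451). In all 3 genes every library with Activin A lay below every library without. The call held in 15 of 17 alternatives for Pprc1, in 10 for Ppargc1b and in 5 for Nrf1, and DESeq2 called neither Ppargc1b (adjusted p = 0.182) nor Nrf1. Gabpa, the ETS-family subunit of the factor also called NRF-2, and Yy1 did not pass (edgeR adjusted p = 0.568 and 0.777).

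Because these factors act at promoters, the sequence before the start of the members is shown for examples that hold their words. RefSeq promoter windows (GRCm38.p6, 250 bases before to 50 after the start) were found for 65 of the 80 members, as 67 windows. The full NRF1 word, which is GC followed by the core GCATGCGC and was searched on both strands as all words were, occurred in 7.463% of member windows and 0.9711% of all 32851 windows. The core alone, which overlaps it, occurred in 13.43% of member windows and 2.712% of all. The ETS word CCGGAAG occurred in 23.88% and 8.858%, and the YY1 word AAGATGGCG in 8.955% and 1.403%. The SP1 word GGGCGG occurred in 50.75% and 35.66%, and in all 6 called members that had a window. Of the called members, Ndufab1, Sdhaf4 and Ndufa6 are shown, while Cox6b2, Ndufaf3 and Ndufaf7, which also held the SP1 word, are not. Ndufaf4 and Sdhd, which did not pass, are shown as examples of the full NRF1 word and of the ETS word. Each sequence shown is printed 5′ to 3′ on the strand of the gene, with the word in capitals.
Ndufab1 (chr7:122101904-122101963, minus strand, SP1 word): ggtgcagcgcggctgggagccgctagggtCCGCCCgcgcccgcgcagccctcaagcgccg
Sdhaf4 (chr1:24005677-24005736, minus strand, SP1 word): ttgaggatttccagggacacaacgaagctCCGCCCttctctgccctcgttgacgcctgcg
Ndufa6 (chr15:82354342-82354401, minus strand, NRF1 core): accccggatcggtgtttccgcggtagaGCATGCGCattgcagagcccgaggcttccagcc
Ndufaf4 (chr4:24897945-24898004, plus strand, NRF1 word): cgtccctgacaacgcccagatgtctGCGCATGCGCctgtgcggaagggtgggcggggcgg
Sdhd (chr9:50603864-50603923, minus strand, ETS word): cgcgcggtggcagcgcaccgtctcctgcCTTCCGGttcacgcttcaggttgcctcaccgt
Of the 6 called members with a window only Ndufa6 held the NRF1 core, and none held the full NRF1, ETS or YY1 word. A word match describes these windows and does not show that a factor binds there.

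Most partners of these genes in energy metabolism did not pass the test, which called 29.2% of all genes tested. Of the 13 mitochondrially encoded subunits, 1 rose, and their median log2 fold change was 0.002. That gene, mt-Co3, a core subunit of complex IV, had 4590, 3467 and 4419 CPM with Activin A and 3298, 3191 and 2801 CPM without, which do not overlap (log2 fold change 0.43, SE 0.11, edgeR adjusted p = 0.0233). Of 18 tested ATP synthase subunits, 1 rose, Atp5l, a subunit of the membrane part, with a log2 fold change of 0.22 (SE 0.08, edgeR adjusted p = 0.0445). Of 17 alternatives, the call of Atp5l held in 8 and was lost with DESeq2 (adjusted p = 0.140), and that of mt-Co3 held in 13 and was lost without replicate 3 with Activin A (edgeR adjusted p = 0.206). None of 8 genes for cytochrome c and complex III assembly passed the edgeR test at an adjusted p, and none had an unadjusted p below 0.05. Of 22 complex IV assembly factors, only Coa5 passed, and it fell, with 99.5, 95.5 and 97.6 CPM with Activin A and 111, 110 and 112 CPM without (log2 fold change -0.19, SE 0.05, edgeR adjusted p = 0.0103). Of 13 tricarboxylic acid cycle genes, only Ogdh, a subunit of the 2-oxoglutarate dehydrogenase complex, passed, and it fell (log2 fold change -0.18, SE 0.05, edgeR adjusted p = 0.0197). The calls of Coa5 and Ogdh held in 14 and 13 of 17 alternatives. Mitochondrial ribosomal proteins gave 7 higher and 3 lower of 78 (12.8% called), with Mrpl34 at a log2 fold change of 0.42 and Mrps31 at 0.22 among the higher. Cytosolic ribosomal proteins, which are also short and abundant transcripts, gave 14 higher of 84, with the other 70 not passed and a median log2 fold change of 0.09, and Rps20 and Rps6 at 0.26 and 0.24. The share higher was 16.7%, near the 15.2% of all genes tested.

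The read assignment limits some members. Among the tested members the most-read transcript was protein-coding in 61 and of another annotated type in 15, such as Ndufa10, whose most-read transcript is annotated for nonsense-mediated decay. In Ndufa10, Sdha and Ndufaf6, transcripts under 250 bases held 84.1%, 82.8% and 67.9% of the summed TPM but 12.1%, 3.63% and 6.04% of the reads, so levels per length are given as CPM per kilobase. Ndufb1-ps, outside the set because it is annotated as a noncoding RNA, was higher with Activin A (74.0 CPM with, 62.4 CPM without, edgeR adjusted p = 0.00312) and is named after its values were seen.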

How the data were processed

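The authors deposited, for each library, an estimated count and a TPM value per transcript in the columns that Salmon writes, per the file headers. Salmon, DESeq2 and edgeR are listed in the submitters' processing notes, with no version. The deposited estimated counts are not normalized, and the deposited TPM values are scaled for transcript length and library total. The labels and headers do not state the authors' annotation, build or strand setting. Of 133618 transcripts, 133399 matched GENCODE M21 by identifier with versions ignored. The 219 unmatched held 0.140% ± 0.0066 of reads (SD, n = 6) and were left out.

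Estimated counts were summed per gene, rounded, filtered with filterByExpr (minimum count 10, minimum total 15), scaled by TMM and tested with edgeR 4.0.16 in R 4.3.3 (robust quasi-likelihood F test, group only, Benjamini-Hochberg adjustment over all genes tested, threshold 0.05). The standard error is the fold change divided by the square root of F. The steps were tested on simulated data. CPM per kilobase divides by the read-weighted transcript length over all libraries, a scale added after the data were seen. Shared sequence was counted as exact 31-base words of the annotated transcripts. Alternatives used DESeq2 1.42.0, limma 3.58.1 (log2(TPM + 1)), other scalings and filters, a length offset, a GC and length trend (mgcv 1.9.3), coding genes only, a replicate block and left-out libraries.

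Members, lists and tests were chosen with earlier results of these data known. The rule for named genes took, per role, the 3 higher and 3 lower called genes with the smallest p, the extreme fold changes, all complex II subunits and all isoforms with their counterparts, and up to 2 called genes per other list. It gave 51 genes, and genes outside it were named for a level, as a partner or after their values were seen. Replicates differed by more than counting noise (chi-square per degree of freedom 1.82 to 7.20), so none was counted as a duplicate. A result for 1 member is not reported here, and that member is not drawn in the plots of single genes.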

Additional observations from a re-analysis of the deposited data

How the results depend on the processing

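Against 8 members higher and 1 lower with Activin A, upper-quartile scaling gave 13 higher, DESeq2 2 higher and 0 lower, limma on log2(TPM + 1) 1 higher, the length offset 2 higher and 0 lower, and leaving out both doubted libraries (replicate 3 with Activin A, replicate 1 without) 17 higher and 0 lower. DESeq2, limma on log2(TPM + 1) and the length offset each called 2.63% of the members. Of all genes tested they called 19.3%, 10.0% and 13.3%. Upper-quartile scaling called 18.4% of the members against 28.7% of all genes tested. With both doubted libraries left out these shares were 22.4% and 32.0%. Leaving out each library in turn gave 2 to 18 higher and 0 to 1 lower. Over all genes, against 4505 called (2350 higher, 2155 lower), DESeq2 gave 1495 higher, limma on log2(TPM + 1) 1548 (777 higher, 771 lower) and the length offset 2050 (1113 higher, 937 lower), and single left-out libraries gave 3246 to 5689 (1763 to 2881 higher, 1483 to 2808 lower). The cause of these shifts was not tested. The median log2 fold change of the members stayed positive in all 17 alternatives, from 0.02 to 0.09. It was smallest with trends on GC content and length removed (0.0216, 50 members positive). Without replicate 2 with Activin A it was 0.0218, with 46 members positive. Under upper-quartile scaling it was 0.083, where the median over all genes was 0.031. Each of the 9 called members kept its direction in all 17 alternatives. RLE scaling, the 1 CPM filter, coding genes only and the replicate block kept all 9 calls. Replicate numbers did not pair the libraries (same-number correlations -0.025, -0.052 and -0.057), and the block gave 8 higher and 1 lower.

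Among the named genes, 8 near 0, none of which passed in any fit, changed sign in 37 gene and alternative pairs. Upper-quartile scaling gave log2 fold changes of 0.0042 for Ndufs1, 0.0054 for Ndufaf4, 0.023 for Sdha, 0.031 for Cox6a1 and 0.031 for Sdhc. Limma on log2(TPM + 1) gave 0.070 for Ndufs1, -0.030 for Uqcr11, -0.0091 for Cox4i1 and -0.0017 for Cox6b1. The length offset gave 0.11 for Ndufs1, 0.019 for Cox6a1 and 0.043 for Sdhc. The 1 CPM filter gave 0.0019 for Cox6a1 and 0.0021 for Sdhc, and leaving out both doubted libraries gave 0.091 and 0.030. Uqcr11 had -0.0051 with DESeq2, -0.0068 with no filter, -0.039 with the trend removed and -0.0030 with the block. Over single left-out libraries the ranges were -0.017 to 0.085 for Cox4i1, -0.080 to 0.092 for Cox6a1, -0.035 to 0.059 for Cox6b1, -0.099 to 0.020 for Ndufaf4, -0.041 to 0.013 for Sdha, -0.024 to 0.020 for Sdhc and -0.045 to 0.093 for Uqcr11. With 3 libraries a group, members that differed by the few percent seen in most subunits could not be told from the spread between libraries. Estimated reads also carry assignment error for members that share sequence.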
